A study of Mus musculus with 8 samples.

Results

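The fatty acid desaturases and elongases of mouse atria were described from 10 genes of 54532 in the table. They are the stearoyl-CoA desaturase genes Scd1, Scd2 and Scd4, the fatty acid desaturase genes Fads1, Fads2, Fads3 and Fads6, and the elongase genes Elovl1, Elovl5 and Elovl6. The genes were chosen by name, with the KO and control levels of these same libraries already known, so their differences between KO and control are given as a description and support nothing. How many passed the threshold of the fit across all genes is given once, beside the share over all genes. RNA of right and left atria was sequenced after oligo-dT selection in 8 libraries. All came from Chd4flox/flox mice injected on postnatal day 2 with an AAV9 vector. In the KO group (4 libraries) the vector carried Cre recombinase and in the control group (4 libraries) it carried EGFP, each driven by the Nppa promoter, which is active in atrial cardiomyocytes. Recombination was directed to these cells while the whole atrium, of mixed cell types, was sequenced. Only KO mice received Cre and only control mice received EGFP, so effects of either protein and of losing Chd4, a chromatin remodeller of the NuRD complex, cannot be told apart. How old the mice were at collection, and how many made up a library, is not given in the sources used here.

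Stearoyl-CoA desaturases place a double bond in saturated fatty acids made by the cell or taken up, which yields oleate and palmitoleate for membranes and stored fat. Fads1 and Fads2 desaturate essential fatty acids on the way to arachidonate and docosahexaenoate, and the Elovl enzymes add carbon units to acyl chains in the endoplasmic reticulum. In mice Scd1 is best known from liver and fat, Scd2 from brain and from early life, and Scd4 from the heart.

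The Scd genes lie together on chromosome 19 and are close paralogs, so it matters whether reads can tell them apart. The coding sequence of Scd4 was 86.1% identical to that of Scd1 and 84.2% identical to that of Scd2, while Scd1 and Scd2 were 90.4% identical. The stretch of 90 coding bases shown here, copied from GENCODE M21 transcripts (GRCm38), spans a histidine box of the catalytic centre. It starts at coding base 301 in Scd4, 307 in Scd1 and 316 in Scd2, and capitals mark the 17 positions at which Scd4 differs from both paralogs.
Scd4: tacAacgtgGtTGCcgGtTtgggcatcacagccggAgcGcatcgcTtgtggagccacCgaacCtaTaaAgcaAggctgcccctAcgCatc
Scd1: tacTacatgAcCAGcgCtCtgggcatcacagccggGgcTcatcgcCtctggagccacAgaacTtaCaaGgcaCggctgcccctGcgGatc
Scd2: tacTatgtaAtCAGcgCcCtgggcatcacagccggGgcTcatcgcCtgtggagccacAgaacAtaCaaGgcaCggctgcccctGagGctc
Over the whole Scd4 transcript, 5.59% of windows of 36 bases and 0.53% of windows of 100 bases occurred unchanged in a transcript of another Scd gene. For windows of 36 bases this share was 6.92% in Scd1 and 5.46% in Scd2, and for 100 bases 2.64% and 0.896%. Neither the read length nor the treatment of reads with several matches is given in the sources used here. A part of the Scd counts thus remains uncertain, and its size was not measured. It may weigh most on Scd4 in KO, whose level was below those of Scd1 and Scd2.

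The labels were checked on the targeted gene. Chd4 stood at 169, 185, 187 and 200 CPM (counts per 1000000, with library sizes scaled by TMM) in KO 1 to 4 and at 278, 297, 284 and 308 CPM in control 1 to 4. Total counts were 34002292 to 40588007 per library. Libraries control 1, control 2 and KO 2 held 1.61 to 1.79 CPM of 4 Y-linked genes together, and the other 5 held 212 to 256 CPM. Controls 1 and 2 also shared a library name prefix that controls 3 and 4 did not, so these features cannot be told apart between the control pairs. No prefix was shared between KO and control, and KO 1 had a prefix of its own, so whatever the prefix stands for cannot be told apart from the KO-control difference. Atrial cardiomyocyte markers were abundant in every library. Of 8 such markers 7 were called lower in KO and 1 was not called by the edgeR quasi-likelihood test (Benjamini-Hochberg adjusted p under 0.05), beside 13.1% of all 18033 tested genes called lower, with summed levels of 53380 to 67260 CPM in KO and 82330 to 90050 CPM in control. In whole atria, fewer cells of a type and less RNA per cell cannot be told apart.

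In control atria the desaturase and elongase transcripts spanned a wide range of levels. On the scale of CPM per kilobase of exon, which allows genes to be compared, Scd4 had the highest mean at 32.8 ± 12.5 (SD, n = 4). Elovl5 followed at 20.7 ± 0.583, and its distance to Scd4 was smaller than the sum of their SDs. Scd2 (17.7 ± 1.13) and Fads3 (16.3 ± 1.83) lay within their spread of each other and below Elovl5 by more than the spread. Elovl1 (10.3 ± 0.724), Scd1 (9.56 ± 2.12) and Fads1 (9.41 ± 0.8999) were likewise within each other's spread. Fads2 (7.30 ± 0.510), Fads6 (2.98 ± 0.291) and Elovl6 (0.934 ± 0.233) each lay below the gene before it by more than the sum of SDs. With the longest transcript in place of all exons as the length, the order was the same except that Fads1 (13.1) stood above Scd1 (9.68).

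In KO atria the mean of Scd4 stood in the ninth place of this order. Its level per kilobase was 3.50 ± 1.14 CPM (SD, n = 4), with Fads6 (4.74 ± 0.334) before it and Elovl6 (1.09 ± 0.079) after it. Its distance to Fads6 was smaller than the sum of their SDs, and its distance to Elovl6 was larger. Elovl5 (22.8 ± 1.69), Fads3 (19.4 ± 2.43) and Scd2 (16 ± 0.806) then had the highest means.

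**Figure D1:**
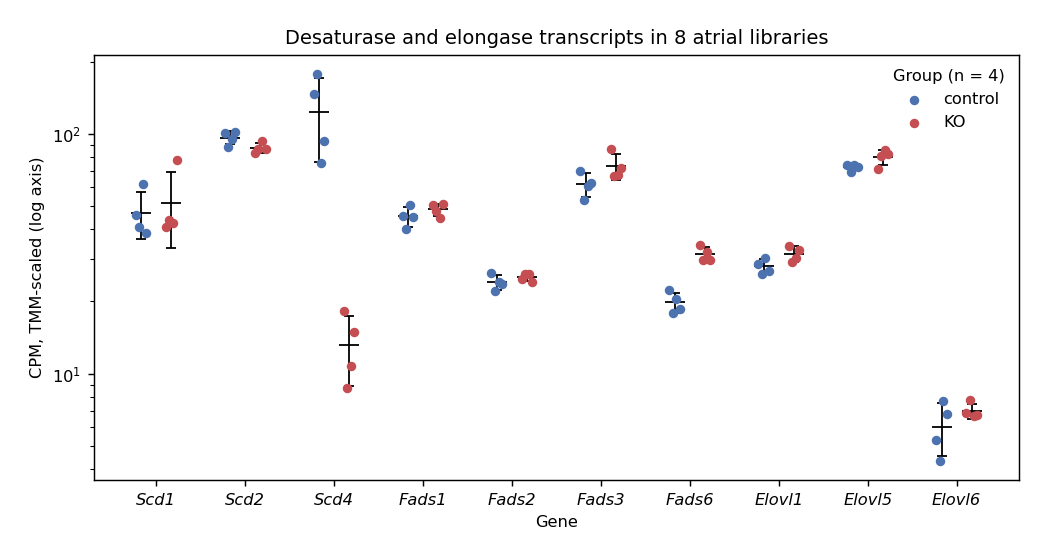
Level of each gene in CPM on a log axis, with a point for each of the 8 libraries, a black bar for the mean and whiskers for the SD (n = 4 a group). The Scd4 points of KO lie at 8.73 to 18.3 CPM, below all control points at 76.0 to 178 CPM, and the Fads6 points of KO lie above those of control.

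Scd4, the desaturase known from the heart (ENSMUSG00000050195, chromosome 19, 44333092 to 44346743 on GRCm38, plus strand), was the gene with the widest separation. It stood at 18.3, 8.73, 10.8 and 14.9 CPM in KO 1 to 4 and at 146, 178, 76.0 and 93.6 CPM in control 1 to 4. Every KO library lay below every control library, and controls 1 and 2 were above controls 3 and 4. The means were 13.2 ± 4.28 CPM in KO and 124 ± 47.1 CPM in control, a log2 fold change of -3.23 (SE 0.38), or 9.39-fold lower in KO. Among 18033 genes in the fit 13 had a lower log2 fold change. The value was -3.64 against controls 1 and 2 alone and -2.71 against controls 3 and 4 alone, with mean levels of 162 CPM in the first pair and 84.8 CPM in the second. The size of the difference thus moved with the control pair while the direction held. KO 2, which shares the low Y-linked level of controls 1 and 2, had the lowest Scd4 level of all libraries. Among the 8 cardiomyocyte markers, the lowest log2 fold change was -1.21 (Myl7, the atrial myosin light chain). The part of a changed cardiomyocyte share in the Scd4 difference was not tested.

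Scd1, the liver and fat desaturase (ENSMUSG00000037071, 44394455 to 44407879, minus strand), did not separate the groups. It stood at 40.8, 43.9, 42.5 and 78.0 CPM in KO and at 46.0, 41.1, 61.6 and 38.5 CPM in control. KO 4 was above every other library and control 3 was the next, while the remaining 6 libraries lay at 38.5 to 46.0 CPM. The log2 fold change was 0.13 (SE 0.25), and it was -0.14 without KO 4. Library KO 4 also held transcripts of fat cells. Adipoq, the adiponectin gene of adipocytes, stood at 15.8 CPM in KO 4, whereas the other 7 libraries held 0.054 to 0.766 CPM, and Plin1, a coat protein gene of adipocyte lipid droplets, at 17.2 against 0.082 to 1.18 CPM. The summed level of all 9 adipocyte markers ranged from 123 to 326 CPM over the KO libraries and from 138 to 199 CPM over the controls, with Fabp4, which capillaries express too, taking most of it. Without Fabp4 the other 8 markers summed to 124 CPM in KO 4, to 5.08 CPM in control 3 and to 1.16 to 4.19 CPM in the remaining 6 libraries. None of the 6 tested adipocyte markers was called by edgeR. The part of fat tissue in the Scd1 level of KO 4 was not tested.

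**Figure D2:**
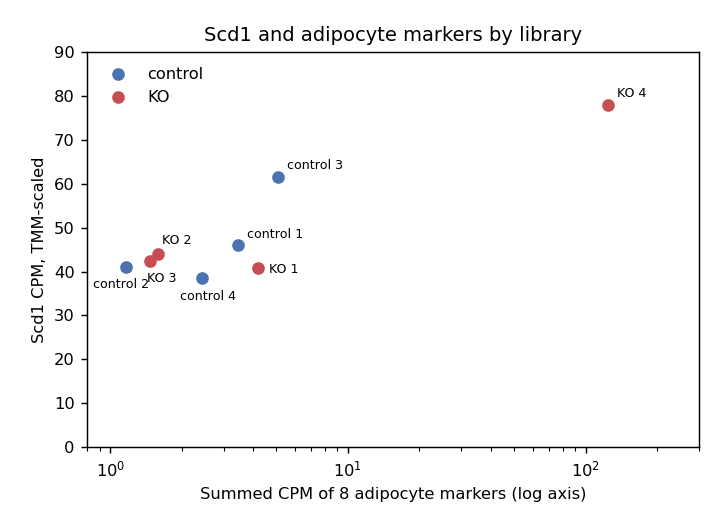
Scd1 level in CPM against the summed CPM of 8 adipocyte markers (Fabp4 left out, log axis), with a labelled point for each library. KO 4 lies alone at 124 CPM of markers and 78.0 CPM of Scd1, and control 3 has the next highest value on both axes.

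Scd2, the brain and early-life desaturase (ENSMUSG00000025203, 44293674 to 44306864, plus strand), differed little. It stood at 83.5, 86.2, 93.8 and 86.5 CPM in KO and at 101, 88.3, 95.6 and 102 CPM in control. KO 3 lay above control 2, so the groups overlapped. The log2 fold change was -0.14 (SE 0.06). Scd3, the remaining gene of the cluster and not among the 10, held 0.027 to 0.234 CPM in any library, near the 0.0744 to 0.0885 CPM that 3 counts are worth, and did not pass the filter on low counts.

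The makeup of the Scd transcripts therefore differed between the groups. Scd4 made up 58.2%, 65.8%, 40.1% and 48.4% of the CPM per kilobase of all 4 Scd genes in control 1 to 4, and 17%, 8.54%, 9.97% and 11.1% in KO 1 to 4. Scd2 took the largest share in KO 1 to 3 (53.5% to 59.8%), and Scd1 (44.6%) and Scd2 (44.2%) were nearly level in KO 4. The summed level of the 4 genes was 30.0 ± 3.89 CPM per kilobase in KO and 60.1 ± 10.9 in control (SD, n = 4). With Scd4 and the scarce Scd3 left out it was 26.5 ± 3.63 in KO and 27.2 ± 2.32 in control, a difference smaller than either SD. The KO mean and SD leaned on KO 4, the library of high Scd1, at 31.8, beside 23.6, 24.8 and 25.9 in KO 1 to 3. Control 1 to 4 stood at 27.8, 24.6, 30.1 and 26.5. A rise of Scd1 or Scd2 that would offset the Scd4 difference was not seen in these sums.

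**Figure D3:**
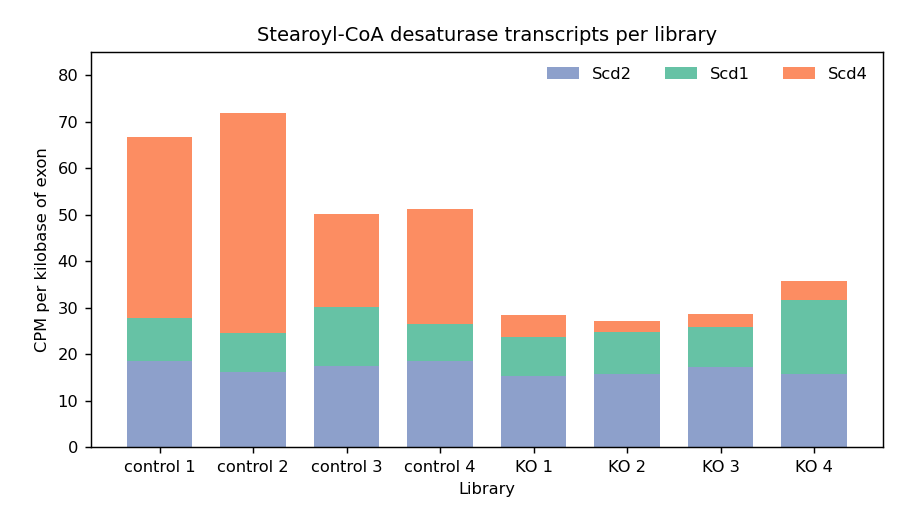
Stacked bars of CPM per kilobase of exon for Scd2, Scd1 and Scd4 in each of the 8 libraries (linear axis from 0, no error bars since each bar is 1 library). The Scd4 part is the largest in each control bar and the smallest in each KO bar, while the other parts keep similar heights except for Scd1, which is taller in KO 4 and in control 3.

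The Fads genes showed one separated member. Fads6, a desaturase-like gene of less studied function (ENSMUSG00000044788, chromosome 11, 115279622 to 115297663 on GRCm38, minus strand), stood at 34.5, 29.7, 32.1 and 29.9 CPM in KO and at 22.3, 17.98, 20.4 and 18.6 CPM in control. Every KO library lay above every control library. The means were 31.5 ± 2.23 and 19.8 ± 1.94 CPM, a log2 fold change of 0.67 (SE 0.08), or 1.59-fold higher in KO. The value stayed between 0.62 and 0.75 under all 19 alternatives. The control pairs did not split here, with means of 20.1 CPM in controls 1 and 2 and 19.5 CPM in controls 3 and 4.

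Fads1, Fads2 and Fads3 lie side by side on chromosome 19, far from the Scd genes, at 10182888 to 10196877 (plus strand), 10062765 to 10101746 (minus) and 10041569 to 10060110 (plus) on GRCm38. Fads3, which desaturates sphingoid bases, stood at 86.8, 66.9, 67.7 and 72.4 CPM in KO and at 70.1, 53.2, 60.6 and 62.7 CPM in control. KO 1 was the highest library and control 2 the lowest, and control 1 lay above KO 2 and KO 3. The log2 fold change was 0.25 (SE 0.10). Fads1, the desaturase that forms arachidonate, stood at 50.4, 47.8, 44.7 and 50.9 CPM in KO and at 45.4, 40.0, 50.6 and 45.1 CPM in control, with a log2 fold change of 0.10 (SE 0.08). Fads2, which takes the entry step of the same route, had the smallest log2 fold change of the 10 at 0.07 (SE 0.07), from 24.9, 26.1, 25.9 and 24.1 CPM in KO 1 to 4 against 26.2, 22.1, 24.2 and 23.7 CPM in the controls. The levels of both genes overlapped between the groups. The 4 Fads genes together summed to 41.8 ± 2.93 CPM per kilobase in KO and 35.9 ± 3.12 in control (SD, n = 4).

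The elongase genes overlapped between the groups as well. Elovl1 lies on chromosome 4 (118428093 to 118432953), Elovl5 on chromosome 9 (77917364 to 77984519) and Elovl6 on chromosome 3 (129532355 to 129638495), all on the plus strand. Exons of Elovl1 share 53 bases with Cdc20 and those of Elovl6 share 34 bases with Gm35986 on the other strand, and whether counting used the strand is not given in the sources used here. Elovl5, which elongates polyunsaturated chains, stood at 71.6, 81.2, 85.4 and 82.3 CPM in KO and at 74.1, 69.7, 74.0 and 73.0 CPM in control (log2 fold change 0.14, SE 0.06). Of the KO libraries KO 1 alone lay within the control range. Elovl1, an elongase of very long saturated chains, stood at 34.2, 29.1, 30.3 and 32.9 CPM in KO and at 28.7, 26.1, 30.5 and 26.8 CPM in control (log2 fold change 0.17, SE 0.08). Control 3 was the control library that reached the KO range. Elovl1, Elovl5 and Elovl6 together summed to 35.4 ± 1.24 CPM per kilobase in KO and 31.9 ± 1.41 in control (SD, n = 4).

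Elovl6, which lengthens palmitate to stearate, had the lowest level of the 10. It stood at 6.84, 7.74, 6.67 and 6.69 CPM in KO and at 5.28, 4.31, 7.66 and 6.77 CPM in control, with a log2 fold change of 0.22 (SE 0.17). Controls 1 and 2 lay below all KO libraries, and controls 3 and 4 lay among them. The log2 fold change was 0.52 against controls 1 and 2 alone and -0.07 against controls 3 and 4 alone, so its direction depended on the control pair. Within the control group Scd4 was high where Elovl6 was low. Over the deviations of the 8 libraries from their group means the correlation of Elovl6 with Scd4 was -0.84 on the log2 scale. This was the largest in size among all pairs of the 10 genes, with Fads1 and Elovl1 next at 0.82. The value is given as a description, since the pair was picked from many and the points share library, depth and control pair.

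**Figure D4:**
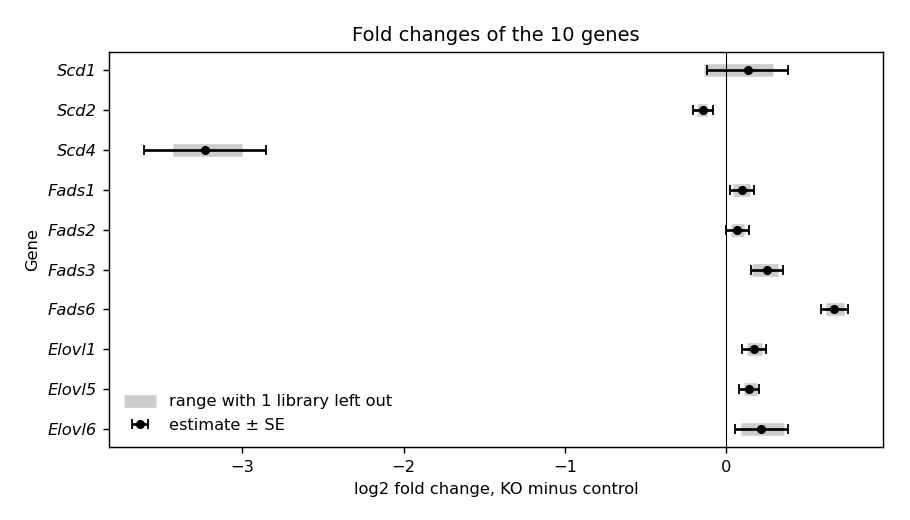
The log2 fold change of each gene (KO minus control, points) with its SE (whiskers) and the range of values with 1 library left out (grey bars). Scd4 at -3.23 and Fads6 at 0.67 stand away from 0, the other 8 lie between -0.14 and 0.25, and the Scd1 range crosses 0.

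All 10 genes passed the filter on low counts. In the fit across all 18033 tested genes, 1 of the 10 (Fads6) was called higher, 1 (Scd4) was called lower and 8 were not called. Over all tested genes 27.9% were called, 14.8% higher and 13.1% lower. The groups did not overlap for 2 of the 10 genes and for 29.2% of all tested genes. The median log2 fold change was 0.14 over the 10 genes and 0.01 over all tested genes. The calls among the 10 changed with the setting. With total-count scaling 4 were called higher and 1 lower, where 3696 of 5276 calls over all tested genes were higher. Without control 2, 1 was called higher and 2 lower. Since the genes were chosen with this contrast known, these counts test nothing and nothing is read from them.

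The remaining desaturase and elongase genes, which were not among the 10, gave no call. Of 9 listed, 8 were found and 5 passed the filter, and none of these was called by edgeR in either direction or had an unadjusted p under 0.05. DESeq2 and limma-voom called 0 of them too. Degs1, the desaturase of ceramide synthesis, was the most abundant, averaging 97.5 ± 7.62 CPM in KO against 92.9 ± 3.85 CPM in control (log2 fold change 0.07, SE 0.06, adjusted p = 0.452). Elovl7 stood at 12.7 ± 1.25 and 10.7 ± 1.34 CPM (0.24 on the log2 scale, adjusted p = 0.139, and 0.0464 with scaling by total counts alone, within a range of 0.0464 to 0.367 over 19 alternatives). Degs2 and Elovl4 stood at 2.52 and 1.01 CPM in KO and at 1.88 and 0.914 CPM in control, and Elovl2 at 0.331 and 0.326 CPM. Fa2h, Elovl3 and Scd3 were below the filter.

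The genes that complete the elongation cycle and supply electrons to the desaturases moved in both directions. Of 13 tested, 2 rose, 4 fell and 7 were not called (median log2 fold change -0.07, against 0.01 over all tested genes). Tecr, the reductase of the last elongation step, fell from 237 ± 16.5 to 174 ± 17.3 CPM (log2 fold change -0.45, SE 0.08, edgeR adjusted p = 0.00134). Its muscle paralog Tecrl fell from 51.1 ± 3.84 to 37.6 ± 5.51 CPM (adjusted p = 0.00497), and Hacd1, the dehydratase of muscle, from 62.8 ± 6.74 to 42.4 ± 6.63 CPM (adjusted p = 0.00311). Cyb5r3, the reductase that passes electrons to cytochrome b5, rose from 144 ± 4.397 to 179 ± 4.06 CPM (log2 fold change 0.31, adjusted p = 0.00074).

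De novo fatty acid synthesis, which supplies the palmitate that Elovl6 and the Scd enzymes use, also moved in both directions. Of 9 tested genes, 3 rose, 2 fell and 4 were not called (median 0.17). Fasn, the fatty acid synthase gene, stood at 79.3, 82.3, 89.9 and 101 CPM in KO and at 65.0, 63.5, 72.1 and 65.9 CPM in control. It rose 1.32-fold (edgeR adjusted p = 0.00232) and KO 4 was the highest library, with the call kept without it. Me1, malic enzyme, which supplies reducing power for synthesis, rose 1.35-fold (adjusted p = 0.00109). Acacb, the acetyl-CoA carboxylase whose malonyl-CoA restrains fatty acid oxidation, fell from 250 ± 10.3 to 184 ± 13.6 CPM (adjusted p = 0.000355), and Mlycd, which degrades malonyl-CoA, fell 1.32-fold (adjusted p = 0.00158).

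Of 17 tested regulators of lipogenic genes, 2 rose, 5 fell and 10 were not called (median 0.08). Srebf2, the SREBP gene linked mainly to cholesterol synthesis, stood at 73.7, 66.9, 60.9 and 61.8 CPM in KO and at 109, 93.7, 103 and 109 CPM in control, without overlap. It fell 1.58-fold (log2 fold change -0.66, SE 0.07, edgeR adjusted p = 6.14e-05). Srebf1, the SREBP gene linked mainly to fatty acid synthesis and picked here after its values were seen, averaged 35.1 ± 1.04 CPM in KO against 32.7 ± 2.54 CPM in control (adjusted p = 0.28). Scap, which escorts SREBP proteins out of the endoplasmic reticulum, fell 1.26-fold (adjusted p = 0.00126), and Ppara, a nuclear receptor for fatty acids, fell 1.44-fold (adjusted p = 0.000617). Nr1h3, which encodes the oxysterol receptor LXR alpha, rose from 24.4 ± 1.31 to 33.5 ± 1.78 CPM (adjusted p = 0.000348).

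Of 18 tested genes of cholesterol synthesis and uptake, 2 rose, 1 fell and 15 were not called (median -0.26). Dhcr7, of the last synthetic step, fell 1.38-fold (edgeR adjusted p = 0.00712, and 0.0508 against controls 1 and 2 alone, the upper end of 0.000457 to 0.0508 over 19 alternatives). Fdft1, squalene synthase, rose 1.36-fold (adjusted p = 0.0147, and 0.0512 without control 4, within 0.00176 to 0.0811 over 19 alternatives). Stard4, a sterol carrier gene, rose 1.35-fold (adjusted p = 0.0481). Leaving out KO 1, KO 2, KO 4, control 1, control 2 or control 4 ended this call (0.0684 to 0.107), and over 19 alternatives the adjusted p ran from 0.0142 to 0.249. Mvk, mevalonate kinase, averaged 8.14 CPM in KO against 10.5 CPM in control (adjusted p = 0.0863, and 0.0333 without control 2, within 0.0333 to 0.248 over 19 alternatives).

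Of 8 tested LXR targets, among which Srebf1 and Nr1h3 also stand in the list of regulators, edgeR called 4 higher, 0 lower and left 4 uncalled (median 0.33). Over all tested genes 14.8% were called higher and 13.1% lower. Apoe, a lipoprotein gene that macrophages express strongly, rose from 1398 ± 97.2 to 1907 ± 141 CPM (adjusted p = 0.000911). Abca1 and Abcg1, which encode sterol exporters, rose 1.51-fold and 1.29-fold (adjusted p = 0.0213 and 0.0261). The Abca1 call was lost without KO 2, KO 3, KO 4, control 1, control 3 or control 4 (0.0523 to 0.0624), and the Abcg1 call without KO 2, KO 3, KO 4, control 1 or control 3 (0.0547 to 0.0875). Over 19 alternatives the adjusted p ran from 0.00059 to 0.172 for Abca1 and from 0.00985 to 0.157 for Abcg1. Of 8 macrophage markers, 4 were called higher and 0 lower by edgeR, beside 14.8% and 13.1% of all tested genes. Their summed levels were 428 to 604 CPM in KO and 373 to 465 CPM in control. The part of macrophages in the rise of the LXR targets was not tested.

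Of 23 tested genes that activate acyl chains or place them in glycerolipids, 8 rose, 4 fell and 11 were not called (median 0.07). Acsl6, an acyl-CoA synthetase gene known for its role with polyunsaturated chains in brain, stood at 79.0, 108, 105 and 85.5 CPM in KO and at 8.82, 7.79, 13.3 and 10.01 CPM in control. It rose 9.47-fold (log2 fold change 3.24, SE 0.18, edgeR adjusted p = 2.63e-06), opposite in direction to Scd4 and similar in size. Lpin1, a phosphatidate phosphatase, fell from 160 ± 10.02 to 85.5 ± 4.00 CPM (adjusted p = 1.34e-06). Plin3, a lipid droplet coat gene, rose 1.64-fold (adjusted p = 2.13e-05), and Mboat2, a lysophospholipid acyltransferase gene, fell 1.42-fold (adjusted p = 0.000133). Counted once each, 91 genes of these 7 lists were tested and 39.6% were called, 20 higher and 16 lower. Over all tested genes 27.9% were called. The lists were chosen with earlier results of these data known, so nothing is read from this difference in shares.

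**Figure D5:**
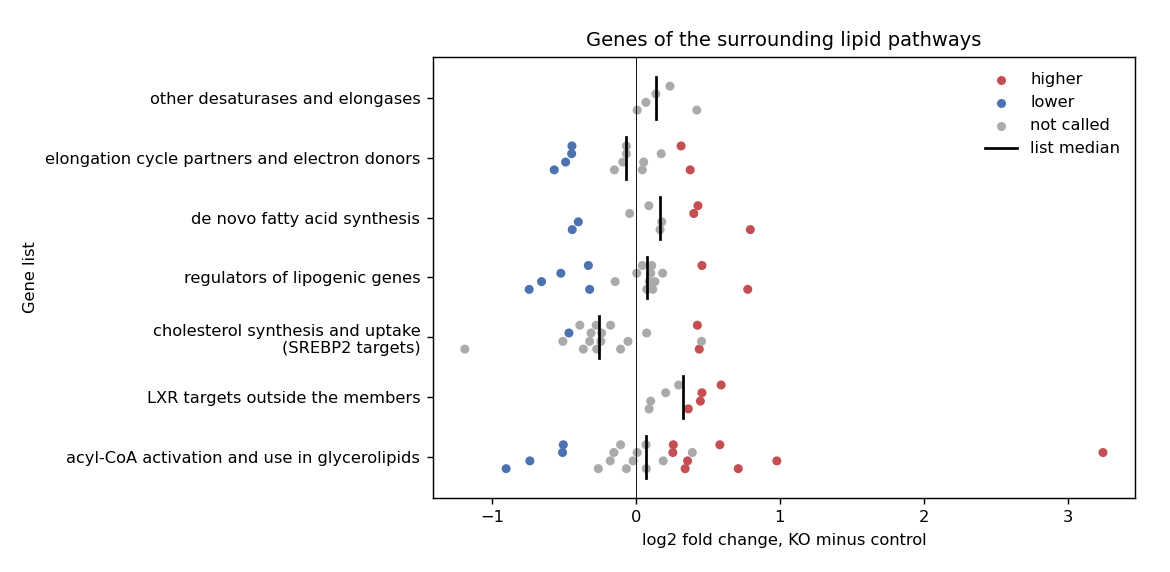
The log2 fold change (KO minus control) of each tested gene in the 7 pathway lists, coloured by its edgeR call, with a black bar for the list median. Called genes stand on both sides of 0 in 5 of the lists, none is called among the other desaturases and elongases, and Acsl6 lies alone at 3.24.

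Markers of other cell types are given beside these values, where 14.8% of all tested genes were called higher and 13.1% lower. Of 8 markers each, 5 fibroblast, 6 epicardial and 4 endothelial markers were called higher by edgeR, with 0, 0 and 1 lower. Of 10 markers of Schwann cells, which make much membrane lipid, 4 were called higher and 0 lower by edgeR, with summed levels of 158 to 173 CPM in KO and 109 to 129 CPM in control. Of 5 brown adipocyte markers 2 passed the filter on low counts and edgeR called neither. Slc36a2 held 49.7 to 56.3 CPM over the KO libraries against 40.2 to 48.0 CPM over the controls, without overlap (adjusted p = 0.0747), and Cidea held 5.88 to 8.91 CPM against 5.33 to 7.19 CPM. Ucp1, Otop1 and Elovl3 were at or near 0, with Ucp1 at 0 CPM in 4 libraries and at most 0.434 CPM (KO 4). The part of these cells in the levels of the desaturase and elongase genes was not tested.

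Genes that neighbour the Scd and Fads members were counted as well, beside 27.9% called over all tested genes. Of 6 other genes tested within 200 kilobases of the Scd cluster, a set chosen after the values were seen, edgeR called 0 higher, 1 lower and left 5 uncalled. The gene that fell was Ndufb8, a subunit gene of respiratory complex I, from 193 to 135 CPM (adjusted p = 0.000567). Around Fads1, Fads2 and Fads3, 1 of 9 such genes rose, 3 fell and 5 were not called. Those that fell were Tmem258, Dagla and Syt7, with log2 fold changes of -0.39, -0.90 and -0.93, and Myrf rose by 0.43.

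RefSeq start-site windows (GRCm38.p6, 250 bases before to 50 after the start) matched 7 of the 10 genes. Both strands were searched for the sterol regulatory element TCACNCCAC, the E-box CACGTG, the NF-Y box CCAAT and the T-box AGGTGT, the motif family bound by TBX5. Scd1, Scd2 and Fads1 had no window and were not searched. None of the 7 genes held the sterol regulatory element, which 1.24% of all 32851 windows held. With so rare a motif and so few genes, nothing is read from its absence. The T-box was found in the Scd4 window alone among the 7, and in 13.7% of all windows. The match begins 20 bases after the RefSeq start on the opposite strand, and is shown in capitals on the plus strand of chr19:44333335-44333360 because Scd4 carries the main difference.
Scd4: ctgactggtgACACCTgcacagttag
The Scd4 window spans 44333076 to 44333375, whereas Scd4 starts at 44333092 in GENCODE. Most of this window thus lies inside the gene as GENCODE places it, and sequence before that start was hardly searched. A match of these letters is a description of the window. The NF-Y box was found for Fads3, Elovl1 and Elovl5 (37.4% of all windows) and the E-box for Elovl5 (7.15%).

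The genes most like 3 of the members over the 8 libraries were taken from 14536 genes whose mean reached 1 CPM, by Pearson correlation of log2 CPM. For Scd4 these were Smarcal1 (0.994), Gm6416 (0.994) and Lrrc39 (0.993), all lower in KO than in control. For Scd1 they were Gm49172 (0.950), mt-Nd5 (0.948) and Csf2rb (0.933), and for Fads2 they were Nt5dc1 (0.950), Mettl16 (0.934) and Tox2 (0.927). With 8 points and this many genes such values are a description.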

How the data were processed

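The table deposited by the authors gives unnormalised read counts of genes in 8 atrial libraries. The submitters' processing notes name STAR, DESeq2 and mm10, without versions. The counting step, strand setting and read length are not given in the sources used here. Each column was assigned by its vector name and number. Of 54532 identifiers 54495 were in GENCODE M21, which gave exon lengths and GRCm38 coordinates. The members and lists were chosen with earlier results of these data known. Genes were kept by filterByExpr (minimum count 10, minimum total 15), which left 18033, scaled by TMM and compared by the robust edgeR quasi-likelihood test (edgeR 4.0.16, limma 3.58.1, R 4.3.3) without covariates (6 residual degrees of freedom). P-values were adjusted by Benjamini-Hochberg over all tested genes, with a threshold of 0.05. The SE is the log2 fold change over the root of its F statistic. Log2 CPM used a prior count of 2. The script was tested on simulated data in which 67, 67 and 66 of 18033 genes were changed 1.5-fold, 2-fold and 4-fold. At the threshold of 0.05 edgeR recovered 55.2% of 1.5-fold, 76.1% of 2-fold and 98.5% of 4-fold changes. Of the edgeR calls 9.47% were false, and of the DESeq2 calls 22.3%. Far fewer genes were changed there than the 27.9% called here, and such rates depend on that share. They are therefore not the error rates of the calls given here. A gene that was not called is not shown to be unchanged. Named genes were all members, Chd4, up to 4 genes of smallest p in each list, every gene of the other desaturases and elongases, and 3 genes most like Scd1, Scd4 and Fads2; marker genes are named as fixed for each cell type, and others where marked as chosen later. Coding sequences were aligned with Biopython 1.88. Chi-square per degree of freedom between replicates was 12.2 to 31.4, so none was counted as a copy. Separate mice are not stated in the labels, so a p-value here reflects the spread among these libraries, which may be technical. Alternatives covered other scalings, DESeq2 1.42.0, limma-voom, other low-count filters, a block for the replicate number, control pairs, Y-linked expression as a covariate and each library left out.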

Additional observations from a re-analysis of the deposited data

Results flagged for a closer look

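In 20 sets of 4 libraries (10 genes in 2 groups), 2 held a library far from the other 3, where chance gives about 1 in 20. Scd1 in KO 4, at 78.0 CPM, lay apart from the other KO libraries at 40.8 to 43.9 CPM, and the same library held 124 CPM of the 8 adipocyte markers other than Fabp4. Elovl6 in KO 2, at 7.74 CPM, lay apart from the other KO libraries at 6.67 to 6.84 CPM, and just above the control range of 4.31 to 7.66 CPM.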

How the results depend on the processing

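Over the 19 alternatives the log2 fold changes of Scd4 and Fads6, given as a description, ran from -3.64 to -2.71 and from 0.62 to 0.75. With 1 library left out the values ran from -3.43 to -3.0 for Scd4, from 0.62 to 0.73 for Fads6, from -0.14 to 0.29 for Scd1 and from 0.09 to 0.36 for Elovl6. Elovl6 moved to 0.52 against controls 1 and 2 alone and to -0.07 against controls 3 and 4 alone, and the cause was not tested. With scaling by total counts Fads2 moved from 0.07 to 0.15, and Scd1 likewise from 0.13 to 0.21. Total-count scaling shifted the median of all genes from 0.01 to 0.09 and the share of higher calls from 53.2% to 70.1%. Of all tested genes, 5032 were called, with 3915 to 5301 when 1 library was left out and 3490 and 3734 against either control pair. The replicate block gave 4757. Deviations of same-numbered libraries correlated at -0.056 to 0.303, with the highest value for number 2. KO 2 and control 2 were both low in Y-linked expression. What same-numbered libraries share beyond the number is not given in the sources used here. Called genes of the cholesterol list numbered 3, against 0 with controls 1 and 2 alone, 6 without KO 1, 5 without control 2 and 1 without control 4. Called LXR targets numbered 4, against 2 with controls 1 and 2 alone or without KO 2, KO 3, KO 4, control 1 or control 3. The glycerolipid list had 12 called genes, against 7 with controls 3 and 4 alone, and the other desaturases and elongases 0, against 1 with total-count scaling. Depth limits Scd3 and Elovl3, which held few counts.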
